A study of Mus musculus with 6 samples.

Results

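The 10 genes *Prrx1*, *Twist1*, *Twist2*, *Tcf21*, *Osr1*, *Osr2*, *Tbx15*, *Tbx18*, *Meox1* and *Meox2* encode transcription factors that mark mesenchymal lineages, and their expression was followed in fibroblasts of the mouse mammary gland. They were chosen by name, with earlier results of these data known. Each was found by its gene identifier among the 27179 genes of the count table. All 10 passed the filter on low counts that left 15219 genes for testing. Bulk RNA-seq had been performed on CD34hi and CD34lo fibroblasts, obtained by sorting Lin–CD24–Pdgfrα+ cells of pubertal mice, 6 weeks old, whose strain is FVB/N in the labels and FVB/NJ in the methods of the study. Every pool of 2 mice gave a library of each population, so that 3 CD34hi and 3 CD34lo libraries came from the same 3 pools. No transgene or treatment is given for these animals, and the populations were separated by the CD34 gate. The comparison asks how the expression of the 2 populations differs, here in their lineage factors.

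Transcription factors of this kind bind DNA and help to set which connective tissue a mesenchymal cell belongs to. Prrx1 is a homeodomain factor of limb and craniofacial mesenchyme, and Twist1, Twist2 and Tcf21 are basic helix-loop-helix (bHLH) factors that bind the E-box as pairs with E proteins. Osr1 and Osr2 are zinc finger factors of the odd-skipped family, Tbx15 and Tbx18 are T-box factors that can recruit Groucho corepressors, and Meox1 and Meox2 are homeodomain factors first known from the somites. Several are widely used as markers of fibroblasts and of their precursors.

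RefSeq promoter sequences (GRCm38.p6) were matched by symbol for 6 of the 10 genes, and *Osr1*, *Osr2*, *Tbx15* and *Meox1* had no entry. The 250 bases before each transcription start were searched on both strands for the E-box (CANNTG), the core bound by homeodomain factors (TAATTA), a T-box core (AGGTGTGA) and the TATA box (TATAAA). These motifs were present in 66.2%, 4.85%, 1.12% and 12.4% of 32817 windows of the same length. The windows of *Twist2* and *Tcf21* held none of the 4 motifs. The other 4 windows, which lie at chr1:163313651-163313900 (minus strand) for *Prrx1*, chr12:33957421-33957670 (plus strand) for *Twist1*, chr9:87731261-87731510 (minus strand) for *Tbx18* and chr12:37108290-37108539 (plus strand) for *Meox2*, are printed 5′ to 3′ because they show which of these letters stand before genes that moved in opposite directions. Capitals mark the matches.
Prrx1: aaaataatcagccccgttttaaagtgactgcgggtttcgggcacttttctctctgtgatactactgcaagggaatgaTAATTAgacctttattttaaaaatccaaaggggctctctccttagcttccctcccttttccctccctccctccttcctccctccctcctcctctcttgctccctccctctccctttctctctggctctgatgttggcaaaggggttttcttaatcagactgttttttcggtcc
Twist1: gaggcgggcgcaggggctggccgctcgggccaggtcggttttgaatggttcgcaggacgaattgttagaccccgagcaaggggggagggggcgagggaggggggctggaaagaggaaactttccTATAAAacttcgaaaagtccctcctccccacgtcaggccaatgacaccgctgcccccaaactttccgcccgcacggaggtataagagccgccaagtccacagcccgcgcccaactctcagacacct
Tbx18: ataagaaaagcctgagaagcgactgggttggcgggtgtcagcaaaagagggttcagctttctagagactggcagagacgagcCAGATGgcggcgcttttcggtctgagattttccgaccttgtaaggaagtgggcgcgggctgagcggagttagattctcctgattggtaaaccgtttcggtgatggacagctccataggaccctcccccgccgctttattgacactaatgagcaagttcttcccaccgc
Meox2: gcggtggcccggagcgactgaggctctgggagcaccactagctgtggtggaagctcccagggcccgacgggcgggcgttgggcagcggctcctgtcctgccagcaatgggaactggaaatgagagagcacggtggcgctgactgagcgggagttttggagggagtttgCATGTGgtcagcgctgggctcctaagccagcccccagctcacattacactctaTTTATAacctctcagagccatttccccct

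The *Prrx1* window held TAATTA, starting 173 bases before the transcription start, and the *Twist1* window held TATAAA at 126 bases. The *Tbx18* window held the E-box CAGATG at 168 bases. In the *Meox2* window, the E-box CATGTG began at 82 bases, and TTTATA, which is TATAAA on the other strand, began at 29 bases. No matches overlapped. A match describes letters and not a bound site.

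Depth lay between 28764779 and 52402410 counts per library, and 3 counts, the smallest amount taken as visible, corresponded to 0.0572 to 0.104 CPM (counts scaled to a common library total), for counting error only. The sort marker *Cd34* was 4.06-fold higher in CD34hi fibroblasts (2570 ± 75.2 against 633 ± 158 CPM, SD, n = 3). The fibroblast markers *Dcn*, *Lum*, *Pdgfra*, *Col1a2* and *Igfbp5* summed to between 28378 and 31844 CPM in CD34hi and between 31490 and 36414 CPM in CD34lo libraries. Markers of several other cell types reached at most 48.4 CPM in sum. The summed levels in CD34hi and CD34lo libraries were 31.5 to 37.8 and 31.5 to 40.7 CPM for 5 epithelial markers (1 higher in CD34lo), 2.01 to 2.95 and 4.13 to 5.40 CPM for 5 macrophage and leukocyte markers, and 0.179 to 0.635 and 0.482 to 1.81 CPM for 3 adipocyte markers (1 higher in CD34lo). Of the leukocyte markers, *Cd68* and *Fcgr1* were tested, with adjusted p = 0.0563 and 0.930 (edgeR). The sums were 14.3 to 19.9 and 3.59 to 7.12 CPM for the 2 keratinocyte markers, both higher in CD34hi. The 4 Schwann cell markers reached 37.9 to 48.4 and 15.1 to 17.9 CPM, with 1 higher in CD34hi and 2 in CD34lo. The part of such cells in the results was not tested.

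The mesenchymal factors were divided between the populations. In the model without the pool, *Tcf21*, *Osr2* and *Prrx1* were higher in CD34hi fibroblasts. *Meox1*, *Meox2*, *Twist2*, *Tbx18* and *Twist1* were higher in CD34lo fibroblasts, and *Osr1* and *Tbx15* did not pass this test. Thus 8 of 10 genes were called at an adjusted p-value under 0.05 (quasi-likelihood test of edgeR, Benjamini-Hochberg adjustment), against 35.6% of all genes tested. The 3 genes higher in CD34hi compare with 16.9% of all genes, and the 5 higher in CD34lo with 18.7%. The 5 were 3, without *Twist1* and *Tbx18*, when pool 1, the CD34hi library of pool 1 or 2, or the CD34lo library of pool 1 or 3 was left out. The same 8 genes had ranges of normalized counts (CPM scaled by TMM, the trimmed mean of M-values) that did not overlap between the populations, which held for 50.1% of all genes tested (24.8% higher in CD34hi, 25.3% higher in CD34lo). With the mouse pool as a block in the model, *Osr1* joined the genes higher in CD34hi, which made 4 and 5 genes against 19.6% and 20.9% of all genes (40.5% in either direction). The median log2 fold change of the 10 genes was -0.30, and that of all genes tested was -0.0064. Such shares and medians, here and for the lists below, describe genes that were chosen with earlier results of these data known. They do not test an excess over all genes. With bulk RNA, a difference in the number of cells of a type cannot be told apart from a difference in RNA per cell.

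**Figure D1:**
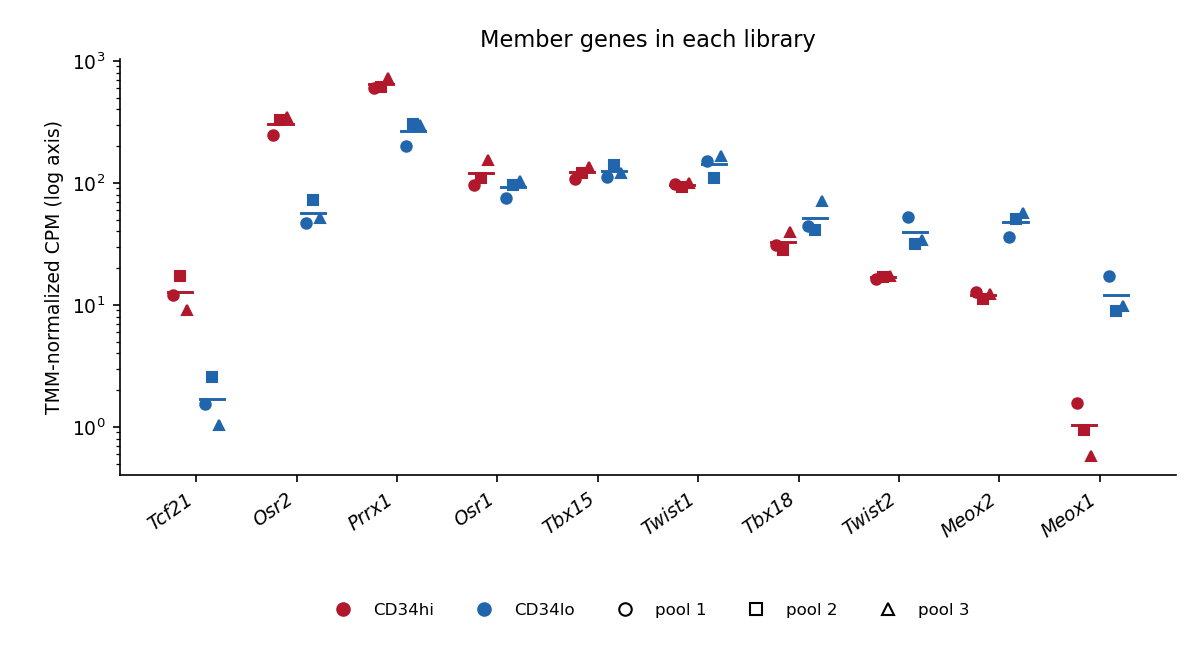
TMM-normalized CPM (log axis) of each gene in the 3 CD34hi (red) and 3 CD34lo (blue) libraries, with the pool given by the symbol and the mean by a bar, ordered by fold change. The populations are separate for every gene apart from *Osr1* and *Tbx15*, with *Tcf21* standing at 12.8 against 1.70 CPM and *Meox1* standing at 1.03 against 11.99 CPM.

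*Prrx1* (gene 18933, chr1:163245119-163313650, minus strand) had the highest counts of the 10 genes. Its normalized counts were 602, 610 and 718 CPM in the CD34hi libraries of pools 1, 2 and 3, and 199, 306 and 300 CPM in the CD34lo libraries of the same pools. All CD34hi libraries lay above all CD34lo libraries, and the lowest value came from the CD34lo library of pool 1. The means were 643 ± 65.3 and 268 ± 60.3 CPM (SD, n = 3), a 2.40-fold difference with a log2 fold change of 1.26 ± 0.19 (SE, the standard error) and an adjusted p = 0.000937. Its only family relative, *Prrx2*, went the other way, at 13.5 ± 1.81 CPM in CD34hi and 32.7 ± 10.4 CPM in CD34lo fibroblasts, with a log2 fold change of -1.28 (adjusted p = 0.00213, edgeR).

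*Tcf21* (gene 21412, chr10:22817263-22820128, minus strand), which in the embryo is needed for visceral and cardiac fibroblast lineages, had the largest difference towards CD34hi fibroblasts. It was measured at 11.98, 17.3 and 9.10 CPM in CD34hi and at 1.53, 2.55 and 1.03 CPM in CD34lo libraries of pools 1, 2 and 3. In both populations pool 2 was highest and pool 3 lowest, and the within-pool log2 differences were close together, at 2.93, 2.74 and 3.09. The log2 fold change was 2.92 ± 0.35 (SE) with adjusted p = 0.000307, or 7.57-fold. The gene overlaps *Gm10824* on the opposite strand, which had at most 4 counts in any library. Without strand information, reads of such partners cannot be told apart.

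*Osr2* (gene 107587, chr15:35296112-35303305, plus strand), a factor of palate and joint development, was also higher in CD34hi fibroblasts. The CD34hi libraries had 246, 324 and 347 CPM and the CD34lo libraries 46.7, 72.8 and 51.5 CPM, so that the lowest CD34hi library was still far above the highest CD34lo library. The log2 fold change was 2.42 ± 0.21 (SE) with adjusted p = 4.45e-05, a 5.37-fold difference. Its relative *Osr1* (gene 23967, chr12:9574442-9581500, plus strand), a factor of limb connective tissue and of fibroadipogenic progenitors, had a much smaller difference. *Osr1* was at 96.6, 110 and 154 CPM in CD34hi and at 74.6, 96.7 and 103 CPM in CD34lo libraries, and these ranges overlapped. Within each pool the CD34hi value was nevertheless the higher, by 0.37, 0.19 and 0.58 on the log2 scale. Without the pool in the model, the log2 fold change of 0.39 ± 0.195 (SE) had an adjusted p = 0.15 in edgeR and a 95% interval of -0.05 to 0.84. With the pool as a block, *Osr1* had a log2 fold change of 0.38 and was called as higher in CD34hi (adjusted p = 0.0312, edgeR).

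*Twist1* and *Twist2*, known for their part in epithelial-mesenchymal transition and in dermal and skull mesenchyme, were both higher in CD34lo fibroblasts. *Twist2* (gene 13345, chr1:91801477-91848027, plus strand) showed nearly equal CD34hi libraries of 16.4, 17.02 and 17.2 CPM, against 52.7, 31.8 and 33.9 CPM in the CD34lo libraries. The spread was thus on the CD34lo side, where pool 1 was highest. Its log2 fold change was -1.23 ± 0.19 (SE) with adjusted p = 0.00134, or 2.34-fold. *Twist1* (gene 22160, chr12:33957671-33959831, plus strand) had 97.2, 92.6 and 98.7 CPM in CD34hi and 152, 109 and 166 CPM in CD34lo libraries. Here the gap between the populations was small, with 98.7 CPM as the highest CD34hi and 109 CPM as the lowest CD34lo value. The log2 fold change of *Twist1* was -0.57 ± 0.16 (SE) with adjusted p = 0.0230, a 1.48-fold difference. With the pool as a block, the adjusted p was 0.00883 (edgeR). The call without the block was lost in several fits with fewer libraries, which also held no block. No fits with fewer libraries were run with the block. Without the CD34hi library of pool 1 or 2, the adjusted p was 0.0747 or 0.0903, and without the CD34lo library of pool 1 or 3 it was 0.0822 or 0.0787 (edgeR). Without pool 1 or pool 3 as a whole, it was 0.154 or 0.106 (edgeR).

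*Tbx15* and *Tbx18* belong to the same T-box subfamily. *Tbx15* (gene 21384, chr3:99253760-99354260, plus strand), a factor of skeletal, muscle and adipose development, was at 108, 121 and 136 CPM in CD34hi and at 112, 139 and 121 CPM in CD34lo libraries. The populations overlapped, the sign differed between pools, and the log2 fold change was -0.03 ± 0.13 (SE) with adjusted p = 0.892 and a 95% interval of -0.331 to 0.275. It was the gene of this list with the smallest difference. *Tbx18* (gene 76365, chr9:87702800-87731260, minus strand), known from the ureter, the epicardium and vascular mural cells, had 31.0, 28.3 and 39.7 CPM in CD34hi and 44.2, 41.2 and 70.4 CPM in CD34lo libraries. The populations did not overlap, but 39.7 and 41.2 CPM were close. The log2 fold change of *Tbx18* was -0.65 ± 0.22 (SE), and its adjusted p = 0.0469 was near the threshold. It was 0.00212 with the pool as a block, 0.0505 with limma-voom, 0.139 or 0.156 without the CD34hi library of pool 1 or 2, and 0.0582 or 0.136 without the CD34lo library of pool 1 or 3 (Benjamini-Hochberg). Without pool 1 or pool 2 as a whole, it was 0.125 or 0.0950 (edgeR). These fits with fewer libraries held no block. Without the CD34lo library of pool 3, the log2 fold change was -0.37.

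The largest differences towards CD34lo fibroblasts were in the *Meox* genes. *Meox1* (gene 17285, chr11:101877510-101894354, minus strand), a factor of the sclerotome and of activated fibroblasts, had 70, 34 and 26 counts in CD34hi and 938, 246 and 306 counts in CD34lo libraries. This corresponds to 1.56, 0.938 and 0.573 CPM against 17.3, 8.84 and 9.83 CPM, with pool 1 highest in both populations. The log2 fold change of -3.55 ± 0.40 (SE) with adjusted p = 0.000201 is an 11.7-fold difference. *Meox2* (gene 17286, chr12:37108546-37179528, plus strand), which is known from limb muscle and vascular cells, had 12.7, 11.2 and 12.2 CPM in CD34hi and 35.8, 50.1 and 56.3 CPM in CD34lo libraries. In contrast to *Meox1* and *Twist2*, pool 1 was the lowest of its CD34lo libraries. The log2 fold change was -1.98 ± 0.18 (SE) with adjusted p = 5.60e-05, or 3.94-fold.

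*Tbx18*, *Meox1* and *Meox2* are also expressed in mural, endothelial or muscle cells, and markers of these cells moved as well. Of 7 pericyte and smooth muscle markers, 5 were higher in CD34lo (*Rgs5*, *Mcam*, *Cspg4*, *Acta2* and *Myh11*) and 1 in CD34hi (*Kcnj8*), with summed levels of 139 to 196 CPM in CD34hi and 174 to 262 CPM in CD34lo libraries. *Rgs5*, a defining pericyte marker, was at most 0.828 CPM in CD34hi and 2.67 CPM in CD34lo libraries. *Acta2* stood at 3.24 ± 0.00756 and 33.3 ± 5.04 CPM (SD, n = 3). Of 4 endothelial markers, *Pecam1* and *Cdh5* were higher in CD34lo and *Tek* was higher in CD34hi, while *Vwf* was called as higher in CD34lo with the pool as a block (adjusted p = 0.00545) and not without it (adjusted p = 0.0713, edgeR). The summed levels were 480 to 663 CPM in CD34hi and 50.6 to 91.6 CPM in CD34lo libraries. *Tek* alone had 543 ± 91.5 CPM in CD34hi and 35.1 ± 11.4 CPM in CD34lo fibroblasts. *Pecam1*, which encodes the CD31 antigen that the Lin gate uses against endothelial cells, had 6.65 ± 3.57 CPM in CD34hi and 14.7 ± 3.27 CPM in CD34lo fibroblasts. Of 6 skeletal muscle markers, 2 were tested and 1, *Des*, was higher in CD34lo, and the sums were 1.27 to 1.57 and 3.60 to 4.28 CPM. The defining markers *Myog*, *Myod1* and *Pax7* had 0 counts in all CD34hi libraries and at most 10 counts in any CD34lo library, and *Myf5* had 1, 0 and 2 counts in CD34hi and 0, 0 and 6 counts in CD34lo libraries. The part of mural and endothelial cells in the differences of the 3 genes was not tested.

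**Figure D2:**
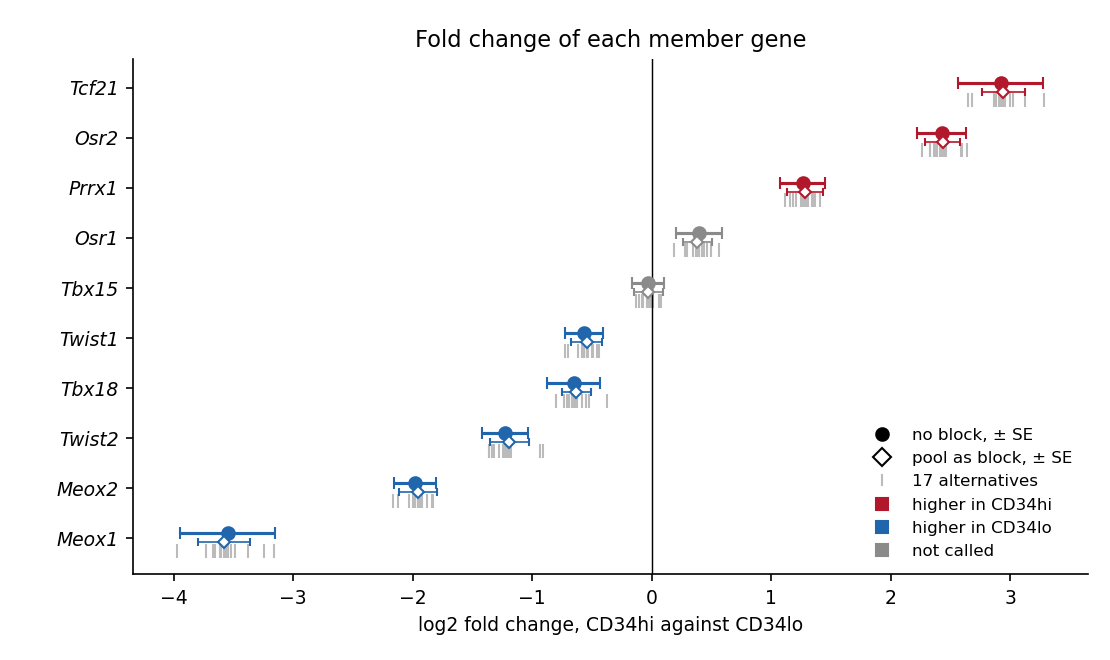
Log2 fold change (CD34hi against CD34lo, horizontal axis) of each gene with its standard error, without (filled circles) and with (open diamonds) the pool as a block, and under all 17 alternatives (grey ticks). Colours give the call without the block. *Tcf21* at 2.92 and *Meox1* at -3.55 mark the ends, and only the ticks of *Tbx15* fall on both sides of 0.

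To compare levels between genes, the CPM were divided by gene length in kilobases. In CD34hi fibroblasts, *Osr2* was highest at 179 ± 30.9 CPM per kilobase (SD, n = 3), followed by *Prrx1* at 86.4 ± 8.76. *Osr1* at 59.8 and *Twist1* at 59.0 CPM per kilobase did not differ beyond their spread, and *Tbx15* came next at 34.1. *Twist2*, *Tcf21* and *Tbx18*, at 12.9, 10.3 and 7.05 CPM per kilobase, formed a lower group in which neighbours overlapped. *Meox2* was at 5.12 and *Meox1* at 0.464 CPM per kilobase. In CD34lo fibroblasts the order was another. *Twist1* was highest at 87.4 ± 18.3 CPM per kilobase, above *Osr1* at 45.5. From *Osr1* through *Prrx1* (36.0), *Tbx15* (34.8), *Osr2* (33.3) and *Twist2* (30.1 CPM per kilobase), each neighbour overlapped with the next. *Meox2* at 20.2, *Tbx18* at 11.1, *Meox1* at 5.43 and *Tcf21* at 1.37 CPM per kilobase were separated from each other. The level of *Osr2* ranked at the 97.7th percentile of all tested genes per length in CD34hi and at the 89.3rd in CD34lo fibroblasts, and *Tcf21* at the 67.2nd and the 26.6th. The sum over the 10 genes was 398, 455 and 509 CPM per kilobase in CD34hi and 290, 298 and 328 in CD34lo libraries, and *Osr2* alone made up 39.4% of it in CD34hi and 10.9% in CD34lo fibroblasts.

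The 10 genes include 4 pairs of close relatives, for which the balance within each library was computed as the log2 ratio of counts per base. This ratio is free of the scaling between libraries. *Osr1* over *Osr2* was -1.58, -1.79 and -1.41 in CD34hi and 0.44, 0.18 and 0.77 in CD34lo libraries, so that *Osr2* prevailed in the first population and *Osr1* in the second. As a share of the pair, *Osr1* made up 24.9% ± 2.49 in CD34hi and 57.9% ± 5.0 in CD34lo fibroblasts (SD, n = 3). The within-pool differences of this ratio were -2.03, -1.97 and -2.18, the most even of the 4 pairs. *Meox1* over *Meox2* was -2.93, -3.49 and -4.32 in CD34hi and -0.96, -2.41 and -2.43 in CD34lo libraries, which puts *Meox1* at 8.19% ± 3.42 and 21.8% ± 10.5 of the pair. *Meox2* was thus the more abundant gene in both populations.

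*Twist1* over *Twist2* was 2.25, 2.13 and 2.21 in CD34hi and 1.21, 1.47 and 1.98 in CD34lo libraries. *Twist1* was the more abundant in all 6 libraries, at 82.1% ± 0.635 of the pair in CD34hi and 74.4% ± 5.02 in CD34lo fibroblasts. *Tbx15* over *Tbx18* was 2.19, 2.49 and 2.17 in CD34hi and 1.73, 2.15 and 1.18 in CD34lo libraries, with 2.15 and 2.17 almost touching. In each of the 4 pairs the 3 CD34hi ratios lay on the same side of the 3 CD34lo ratios. The differences in the mean log2 ratio (CD34hi minus CD34lo) were -2.06 for *Osr1* over *Osr2*, -1.65 for *Meox1* over *Meox2*, 0.64 for *Twist1* over *Twist2* and 0.60 for *Tbx15* over *Tbx18*. An exact two-sided permutation test of 3 against 3 libraries gave p = 0.1 for each pair (0.1 also after Benjamini-Hochberg adjustment over the 4 pairs), which is the smallest p that this unpaired test allows. The libraries share pools, and within the pools the differences had 1 sign for each pair, between -2.18 and -1.97 for *Osr1* over *Osr2*, between -1.97 and -1.07 for *Meox1* over *Meox2*, between 0.22 and 1.04 for *Twist1* over *Twist2* and between 0.34 and 0.99 for *Tbx15* over *Tbx18*. These paired differences were not tested.

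**Figure D3:**
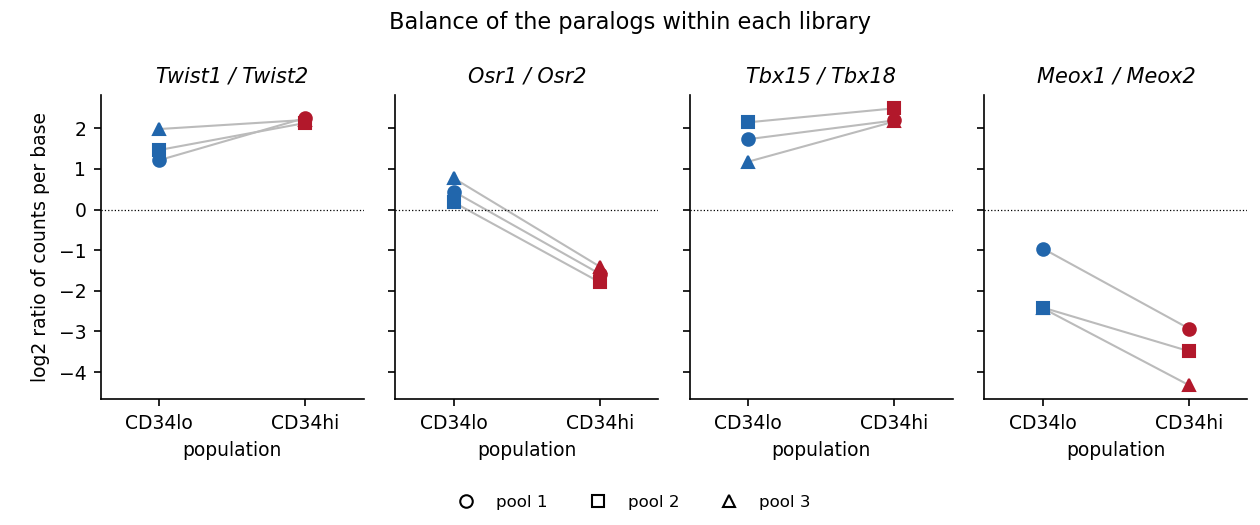
Log2 ratio of counts per base (vertical axis) for each pair of related genes in CD34lo (blue) and CD34hi (red) libraries, with lines joining the libraries of the same pool. The *Osr1* / *Osr2* ratio crosses 0 in all 3 pools, from between 0.18 and 0.77 to between -1.79 and -1.41, while the other pairs keep their sign.

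Of the further members of the same families that were called, most were higher in CD34lo fibroblasts. Of 24 listed relatives of Prrx, of the Twist-like bHLH factors and of the T-box factors, 13 were tested. Of these, 7 (53.8%, against 18.7% of all genes) were higher in CD34lo and 1 (7.69%, against 16.9%) in CD34hi (edgeR, adjusted p under 0.05). The 7 were 4 without pool 1, without pool 2, without the CD34hi library of pool 1, or where every library had to hold 10 counts. Their median log2 fold change was -0.97, against -0.0064 for all genes tested. The T-box repressor gene *Tbx2* had 3.44 ± 0.405 CPM in CD34hi and 80.6 ± 19.4 CPM in CD34lo fibroblasts, which differed by -4.55 ± 0.21 (SE) on the log2 scale with adjusted p = 2.58e-06. *Tbx3*, which is needed for mammary placode formation, had 7.72 ± 0.638 and 51.2 ± 11.4 CPM, with a log2 fold change of -2.73 ± 0.18 (SE) and an adjusted p = 1.18e-05. *Tbx5*, a factor of forelimb and heart, was the exception, at 19.6 ± 1.06 CPM in CD34hi and 2.57 ± 0.615 CPM in CD34lo fibroblasts (log2 fold change 2.95, adjusted p = 1.32e-05). *Tcf23* and *Tbx1* were called as higher in CD34lo, where they reached 1.04 ± 0.645 and 0.859 ± 0.605 CPM, with 3 to 20 and 6 to 14 counts per CD34hi library. Both calls were lost in several fits with fewer libraries, with adjusted p-values of up to 0.130 and 0.291 (edgeR). *Scx*, *Tcf24*, *Tbx4*, *Tbx6* and *Mga* missed the threshold, at 0.10, 0.83, 0.04 (a sign that turns with upper-quartile scaling), -0.48 and -0.38 on the log2 scale. *Mga* had an adjusted p = 0.0476 with the pool as a block (edgeR). *Tbx22*, the relative closest to *Tbx15* and *Tbx18*, had 0 counts in every library, which allows up to 0.104 CPM (3 counts in the shallowest library).

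Most genes of E proteins and Id proteins were, like *Twist1* and *Twist2*, higher in CD34lo fibroblasts. *Tcf21*, the other bHLH factor of the 10 genes, was higher in CD34hi (log2 fold change 2.92). E proteins pair with Twist-like factors, and Id proteins bind E proteins and keep them from DNA. Of these 7 genes, 5 were higher in CD34lo fibroblasts (71.4%, against 18.7% of all genes) and 0 in CD34hi (against 16.9%). The median log2 fold change of the 7 genes was -0.97. *Id1* differed most, from 10.4 ± 0.610 CPM in CD34hi to 105 ± 15.4 CPM in CD34lo fibroblasts (SD, n = 3), which is -3.33 ± 0.14 on the log2 scale (SE) with adjusted p = 2.13e-06. The E protein gene *Tcf4* had 188 ± 2.87 and 553 ± 162 CPM (log2 fold change -1.55, adjusted p = 0.000593). *Tcf12* had 102 ± 0.636 and 200 ± 10.3 CPM, with a log2 fold change of -0.97 (adjusted p = 0.000167). *Id4* followed at -1.19 (adjusted p = 0.000581), and *Id3* was called as well. *Tcf3*, the third E protein gene, was at 60.4 ± 2.95 and 60.0 ± 7.36 CPM (log2 fold change 0.01, a direction that flips with upper-quartile scaling), and *Id2* had a log2 fold change of -0.28. Neither passed the test.

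Among 6 genes of the Groucho family, *Tle5* and *Tle6* were higher in CD34hi, with log2 fold changes of 1.08 and 1.11. *Tle2* was higher in CD34lo fibroblasts at -0.78. The shares were 33.3% of the list in CD34hi and 16.7% in CD34lo, against 16.9% and 18.7% of all genes. *Tle5*, a short family member that lacks most domains of the others, had 159 ± 6.55 CPM in CD34hi and 75.4 ± 4.36 CPM in CD34lo fibroblasts (adjusted p = 0.000101, edgeR). *Tle1*, *Tle3* and *Tle4* missed the threshold, with values of 0.002, -0.39 and 0.20 on the log2 scale, and the sign of *Tle1* turned with upper-quartile scaling. With the pool as a block, *Tle3* was called as higher in CD34lo (adjusted p = 0.0421, edgeR), so that 2 genes of the list stood on that side. *Tle2* lost its call without pool 1 or pool 2 (adjusted p = 0.0776 and 0.0928, edgeR). The median of the list was 0.10 on the log2 scale.

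A wider list of 34 other transcription factors of connective tissue held 31 tested genes. Among them, 8 (25.8%, against 16.9% of all genes) were higher in CD34hi and 15 (48.4%, against 18.7%) in CD34lo fibroblasts. On the log2 scale, the median of the list was -0.51, against -0.0064 for all genes tested. The factors of the list with the largest differences towards CD34lo were *Foxl1*, *Runx2*, *Foxs1* and *Foxd2*. *Runx2*, the factor of bone formation, had 5.21 ± 2.05 CPM in CD34hi and 98.4 ± 39.8 CPM in CD34lo fibroblasts (log2 fold change -4.23 ± 0.40, SE, adjusted p = 7.49e-05). *Foxs1* had 0.523 ± 0.399 and 9.18 ± 4.93 CPM (log2 fold change -4.11, adjusted p = 0.000537). *Foxl1* had 2, 0 and 0 counts in CD34hi and 87, 14 and 13 counts in CD34lo libraries, and *Foxd2* had 9, 1 and 2 against 54, 47 and 31 counts, so their fitted fold changes depend on the prior count. On the CD34hi side, *Ebf3*, a factor of adipogenic and stromal precursors, had 73.5 ± 4.36 against 15.3 ± 3.71 CPM (log2 fold change 2.27, adjusted p = 3.30e-05). *Pitx1*, the hindlimb homeodomain factor, had 138, 113 and 105 counts in CD34hi and 7, 6 and 2 in CD34lo libraries. *Foxf2* was also higher in CD34hi, at 0.817 ± 0.110 CPM there.

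Genes described as targets of Twist1, Prrx1 or Meox2 were found in both directions. The genes of these factors themselves went in opposite directions, and no expected sign was set for the list. The list therefore does not test the activity of the factors. Of 7 genes, 2 were higher in CD34hi (28.6%, against 16.9% of all genes) and 3 in CD34lo fibroblasts (42.9%, against 18.7%). The median log2 fold change was 0.16. *Tnc*, the tenascin gene described as a Prrx1 target, had 8.31 ± 4.35 CPM in CD34hi and 160 ± 58.6 CPM in CD34lo fibroblasts (log2 fold change -4.26, adjusted p = 8.93e-05), the direction opposite to *Prrx1*. *Postn*, the matrix gene periostin and a described Twist1 target, differed in the same direction as *Twist1*, at 2075 ± 386 and 12448 ± 2031 CPM (log2 fold change -2.59, adjusted p = 3.76e-05). *Fn1*, the fibronectin gene, was higher in CD34hi, at 16243 ± 1600 against 6660 ± 1112 CPM (log2 fold change 1.29, adjusted p = 0.00104). *Cdh2*, encoding N-cadherin, was higher in CD34hi at 2.98 ± 0.516 against 1.47 ± 0.155 CPM (adjusted p = 0.0114, edgeR), and its adjusted p was 0.0625, 0.0598 and 0.0507 without pools 1, 2 and 3. The E-cadherin gene *Cdh1* had 2.47 ± 0.480 and 2.202 ± 0.493 CPM, and its log2 fold change of 0.16 did not pass. The cell cycle inhibitor genes described as Meox2 targets were divided. *Cdkn2a* had 3, 1 and 3 counts in CD34hi and 80, 32 and 26 in CD34lo libraries (adjusted p = 0.000265, edgeR), while *Cdkn1a* had a log2 fold change of 0.45 that passed with the pool as a block (adjusted p = 0.0234) and not without it (adjusted p = 0.101, edgeR).

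**Figure D4:**
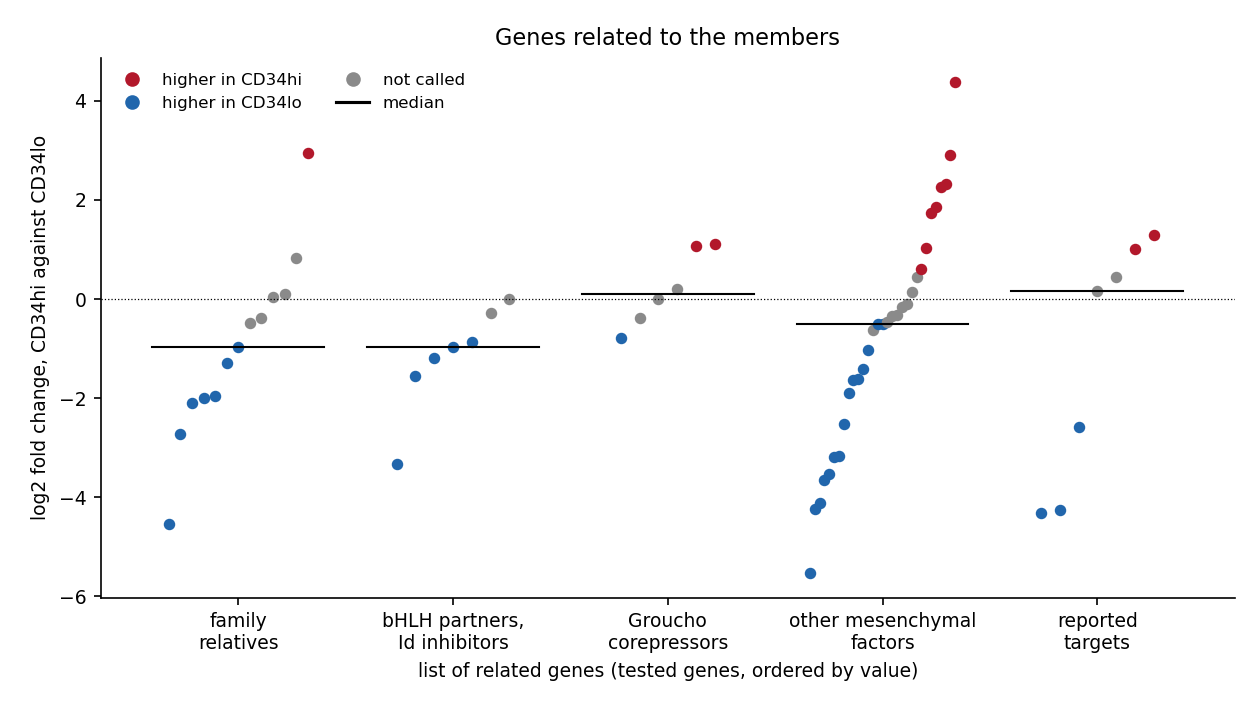
Log2 fold change (CD34hi against CD34lo, vertical axis) of every tested gene in the 5 lists of related genes, coloured by the call, with the median of each list as a bar. The family relatives and the bHLH partners with the Id inhibitors lie mostly below 0, with medians of -0.97 each. *Tbx5* at 2.95 and *Tbx2* at -4.55 are the ends of the first list.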

How the data were processed

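Expression was measured by RNA-seq in 3 CD34hi and 3 CD34lo fibroblast libraries, grouped by their labels. The authors prepared TruSeq RNA v2 libraries from polyA RNA, aligned reads to GRCm38/mm10, assigned them to genes with Rsubread, and deposited the whole-number counts, not normalized. Annotation, strand and multi-mapping settings are not given in the sources used here, and the library kit does not mark strand.

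Identifiers were paired with RefSeq symbols (25275 of 27179 genes). In R 4.3.3, edgeR 4.0.16 applied filterByExpr, TMM normalization and the quasi-likelihood test over all 15219 genes kept, with Benjamini-Hochberg adjustment and a threshold of 0.05. Every adjusted p in the text comes from this fit unless another is named. Log2 fold changes are CD34hi against CD34lo, and 95% intervals use the fit's t distribution. Within-pool log2 differences used a prior count of 2. Paralog ratios were tested by an exact permutation test (scipy 1.17.1). The fit without the block was tried on simulated counts with few changed genes and no pool effect, a simpler setting than these data.

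Libraries with the same number in their labels were taken as coming from the same pool of mice. Their deviations from the population means correlated at 0.279, 0.0844 and 0.243 across genes in pools 1, 2 and 3. Between libraries of different numbers, these correlations lay between -0.279 and 0.0681. Libraries of a population differed by more than sampling noise (chi-square over its degrees of freedom, 22.3 or more). Alternatives were limma-voom (limma 3.58.1, the test of the study), DESeq2 1.42.0, other scalings and filters, the pool as a block, and each pool or library left out. The fits with a pool or library left out held no block.

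The 10 genes, the lists and the tests were chosen with earlier results of these data known. Named list genes are those called with the largest absolute change, up to 4 in each direction, and those not called where a list had 5 or fewer. *Id3*, *Prrx2*, *Tbx22* and the single cell type markers were named after their values were seen. Results for some genes of the lists are not reported here.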

Additional observations from a re-analysis of the deposited data

How the results depend on the processing

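The direction and the call of *Prrx1*, *Twist2*, *Tcf21*, *Osr2*, *Meox1* and *Meox2* were the same in all 17 alternatives, with adjusted p-values of at most 0.0131 (Benjamini-Hochberg). *Osr1* was called only with the replicate block, at log2 fold changes of 0.38 in edgeR and 0.378 in limma-voom, and ranged from 0.18 to 0.56 when a pool or library was dropped. In the same fits, *Twist1* ranged from -0.73 to -0.44 and *Tbx18* from -0.80 to -0.37, while *Tbx18* was -0.62 with limma-voom. *Tbx15* had either sign, from -0.13 to 0.081. The 3 genes higher in CD34hi were 4 with the replicate block, and the 5 higher in CD34lo stayed 5. The latter were 3 when the log2 fold change had to reach 1 in size, 3 at an adjusted p under 0.01, and 3 to 5 with a pool or library dropped. The 5411 genes called in all were 6161 with the replicate block, 2986 with a log2 fold change of 1 or more in size, 3444 at an adjusted p under 0.01 and 3468 to 5236 with a pool or library dropped, the lowest without pool 1. The family relatives higher in CD34lo were 4 with at least 10 counts in every library, where fewer genes were tested, and 4 to 7 with a pool or library dropped. The corepressors higher in CD34lo were 2 with the replicate block by either edgeR or limma-voom, and 0 to 1 with a pool or library dropped. The other mesenchymal factors higher in CD34hi were 5 with at least 10 counts in every library, and 7 to 8 with a pool or library dropped, and the described targets higher in CD34hi were 1 to 3. With upper-quartile scaling, *Tbx4*, *Tcf3* and *Tle1* turned to -0.006, -0.044 and -0.051, and with at least 10 counts in every library *Tcf3* and *Tle1* were -0.007 and -0.013. With a pool or library dropped, *Scx* ranged from -0.48 to 0.89, *Tbx4* from -0.52 to 0.58, *Tcf3* from -0.11 to 0.14, *Tle1* from -0.032 to 0.084 and *Cdh1* from -0.004 to 0.36. The block changed the calls of *Osr1*, *Mga*, *Tle3* and *Cdkn1a* among the genes named by rule, and of no other. The sign of the 4 paralog differences held in all 5 alternatives of each. The replicate block and the omission of a pool could not turn it, since the within-pool differences of each pair shared 1 sign. The cause of the changes with the block or with libraries left out was not tested. The requirement of 10 counts in every library gave no value for *Tcf23*, *Tbx1*, *Scx*, *Tbx4*, *Pitx1*, *Foxf2*, *Foxl1*, *Foxd2* and *Cdkn2a*. Each of these genes had fewer than 10 counts in at least 1 library.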

Other observations

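Over the 6 libraries, and among 11537 genes with a symbol and a mean log2 CPM of at least 1, the genes whose log2 CPM followed *Tcf21* most closely were *Agfg2*, *Ttc39c* and *Nup88*, with Pearson's r of 0.999, 0.997 and 0.997. They shared the order of its libraries, with pool 2 highest and pool 3 lowest in both populations, but with smaller differences, since *Agfg2* had 23.6, 25.2 and 20.7 CPM in CD34hi and 11.4, 13.5 and 10.3 CPM in CD34lo libraries. Those closest to *Meox1* were *Rlf*, *Zbtb7c* and *Mlf1*, with Pearson's r of 1.00, 0.999 and 0.998. *Zbtb7c*, a zinc finger gene, resembled it in size as well, at 2.24, 1.21 and 0.926 CPM in CD34hi and 19.0, 9.53 and 10.8 CPM in CD34lo libraries. These correlations describe 6 libraries that share the contrast between the populations and were picked as the highest of many.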
